A study of Mus musculus with 4 samples.

Results

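The Eph receptors, ephrins, semaphorins, plexins and neuropilins were examined in mouse embryos with and without Tbx1. Members were chosen by gene symbol, with earlier results of these data known. Transcript clusters with 1 symbol of the Epha, Ephb, Efna, Efnb, Sema, Plxn and Nrp families were averaged per gene, which gave 52 of the 22180 named genes. They comprise 9 EphA and 4 EphB receptors, 5 ephrin-A and 3 ephrin-B ligands, 7 class 3 semaphorins, 13 semaphorins of classes 4 to 7, 9 plexins and 2 neuropilins. The EphB receptor gene Ephb2 is not among the members, so nothing is said of it here. The data are 4 arrays (Affymetrix Mouse Gene 2.0 ST), 1 per group: Tbx1 knockout palatal shelves and wild-type palatal shelves at embryonic day (E) 13.5, and Tbx1 knockout head and wild-type head at E12.5. All 4 samples had the mixed C57BL/6J x FVB/N background, and the labels name no treatment, no driver line and no deleted exon. They do not say how many embryos gave RNA to an array.

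Eph receptors are tyrosine kinases that bind ephrins on neighbouring cells. EphA receptors mostly bind ephrins anchored by a lipid, EphB receptors mostly bind transmembrane ephrins, and both partners can signal into their own cell. Semaphorins signal through plexins, with class 3 semaphorins secreted and mostly requiring a neuropilin as co-receptor, and most other vertebrate classes held at the membrane. These genes steer axons, neural crest cells and blood vessels, and in the palate ephrin-B1 with its EphB receptors is needed for normal shelf growth in the mouse.

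Values are log2 expression made by the authors with RMA, so a difference of 1 is 2-fold. With 1 array per group no difference between 2 arrays has a replicate check, and such differences are given without a test. Genes were counted in a pair (they entered it) if at least 1 of the 2 arrays read 6.16 or more, which is the median of all named genes, and a call was a difference of at least 1.5-fold (0.58 on the log2 scale). Of the 52 members, 46 entered the shelf pair and 43 the head pair, 41 lay at or above the limit on every array, and Epha6, Epha8, Epha10 and Plxnb3 lay below it on every array. The targeted gene read 6.18 in knockout shelves against 7.39 in wild-type shelves, and 6.25 in knockout heads against 6.83 in wild-type heads. Whether its probes lie in the deleted part is unknown here, so these levels may not check the genotype. Of the palatal mesenchyme markers, all 13 that were measured lay above the limit on every array, and 12 of 13 were higher in the shelves than in the head (median log2 difference 1.56), among them Osr2 at 1.63. The description field calls the E13.5 samples heads, and the titles were followed. In bulk tissue, fewer cells of a type and less RNA per cell cannot be told apart.

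**Figure D1:**
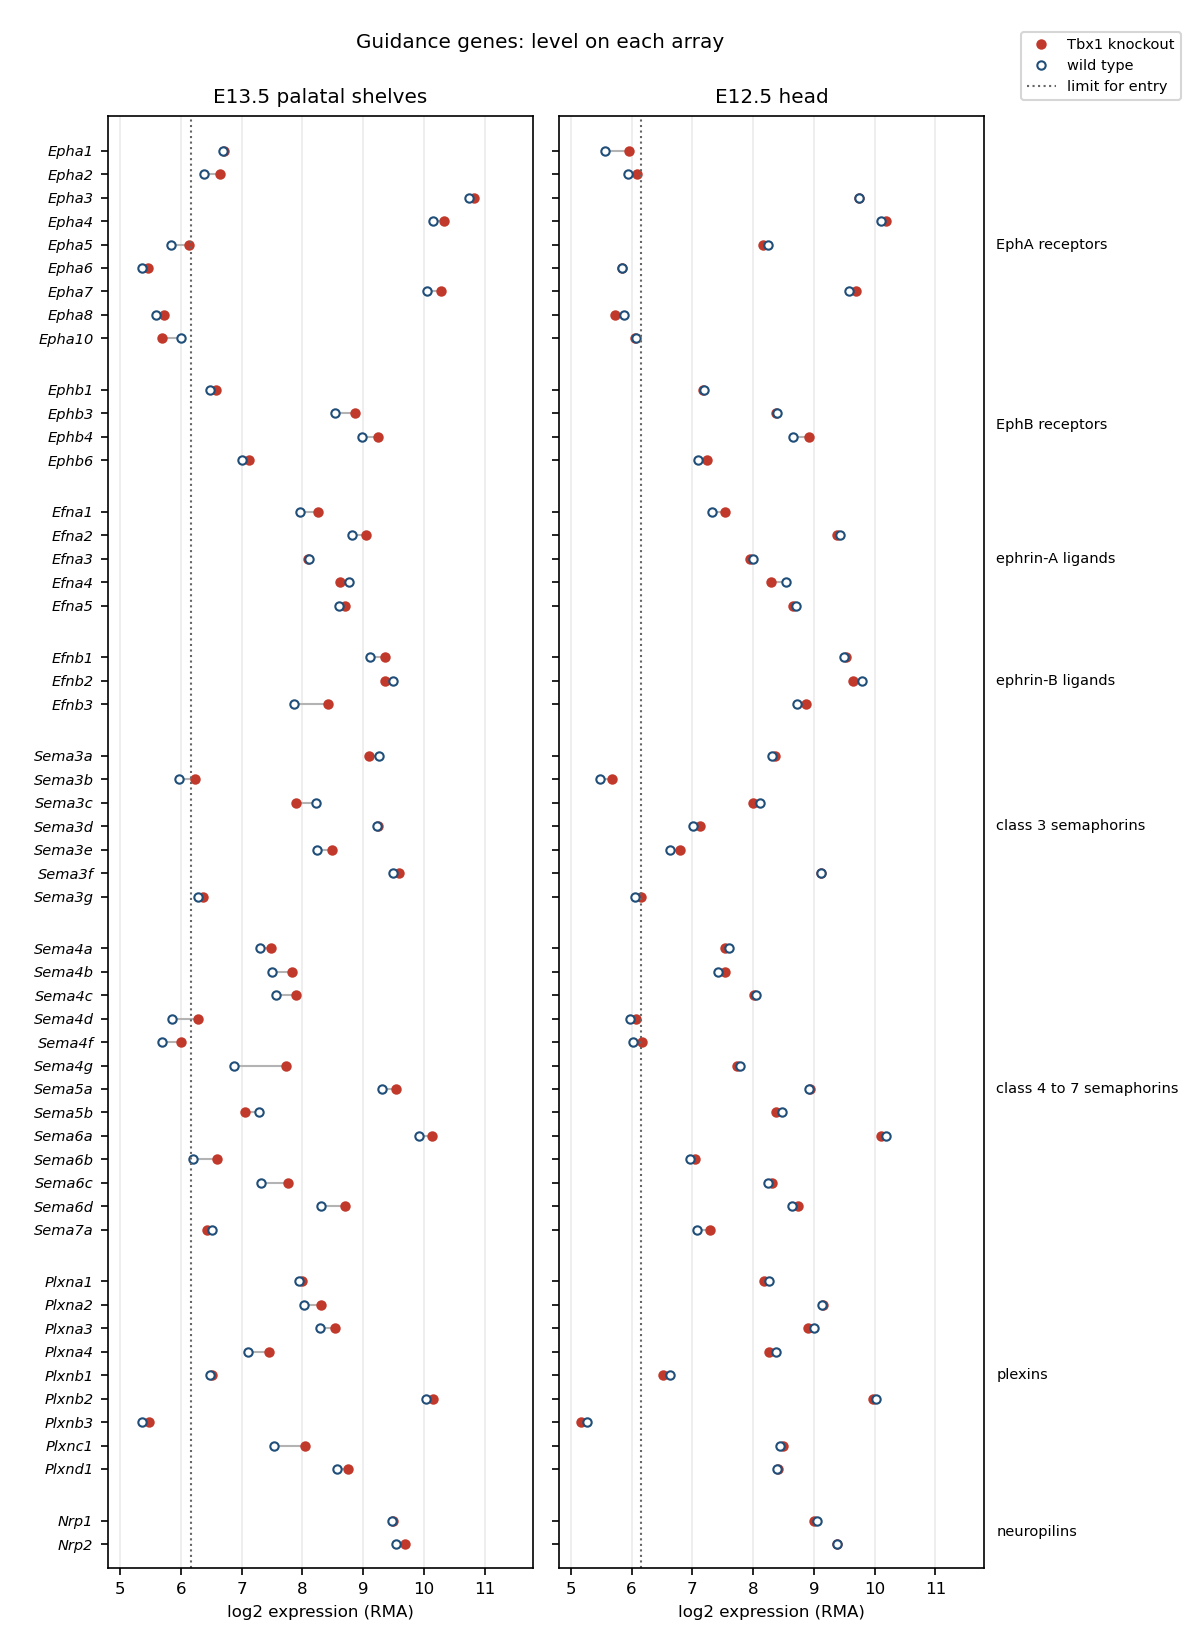
Level of each of the 52 guidance genes on each array, with E13.5 palatal shelves in the left panel and E12.5 head in the right panel. Filled points are the knockout array, open points the wild-type array, the horizontal axis is log2 expression (RMA), and the dotted line is the limit for entry (6.16). Sema4g is the member whose 2 shelf arrays lie farthest apart, at 7.73 in the knockout and 6.88 in wild type.

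The members on which the comparisons turned were Sema4g, called in the knockout shelves, and Sema3d, Sema3e, Epha5 and Sema5b, which lay at least 2-fold apart between shelves and head on all arrays. Their promoters are shown to give the DNA next to the genes that differed. RefSeq windows (GRCm38.p6) matched 46 of the 52 members, and the 250 bases before the annotated start of these 5 genes follow, read 5′ to 3′ on the gene's strand. Capitals mark ACGTG, a form of the core of hypoxia response elements, or its reverse complement CACGT, and the T-box half-site GGTGTGA or TCACACC. The hypoxia motif was searched because hypoxia-responsive genes were higher in the knockout shelves. Other forms of its core were not searched and are not marked. The windows lie at chr19:44989094-44989343 (plus strand) for Sema4g, chr5:12382916-12383165 (plus strand) for Sema3d, chr5:14025026-14025275 (plus strand) for Sema3e, chr5:84417383-84417632 (minus strand) for Epha5 and chr16:35541112-35541361 (plus strand) for Sema5b.
Sema4g: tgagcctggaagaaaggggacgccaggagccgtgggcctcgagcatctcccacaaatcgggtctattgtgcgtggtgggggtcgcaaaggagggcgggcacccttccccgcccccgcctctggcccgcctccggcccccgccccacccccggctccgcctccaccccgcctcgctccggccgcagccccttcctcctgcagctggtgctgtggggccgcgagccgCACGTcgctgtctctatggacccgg
Sema3d: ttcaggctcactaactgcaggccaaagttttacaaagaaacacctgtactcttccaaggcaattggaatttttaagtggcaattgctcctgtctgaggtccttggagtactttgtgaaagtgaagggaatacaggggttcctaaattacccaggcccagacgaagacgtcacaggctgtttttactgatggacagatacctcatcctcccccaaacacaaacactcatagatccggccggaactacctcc
Sema3e: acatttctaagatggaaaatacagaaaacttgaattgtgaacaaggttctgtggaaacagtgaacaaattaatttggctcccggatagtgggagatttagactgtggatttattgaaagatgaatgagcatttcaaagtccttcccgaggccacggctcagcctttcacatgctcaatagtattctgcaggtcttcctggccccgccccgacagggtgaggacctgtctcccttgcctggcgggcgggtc
Epha5: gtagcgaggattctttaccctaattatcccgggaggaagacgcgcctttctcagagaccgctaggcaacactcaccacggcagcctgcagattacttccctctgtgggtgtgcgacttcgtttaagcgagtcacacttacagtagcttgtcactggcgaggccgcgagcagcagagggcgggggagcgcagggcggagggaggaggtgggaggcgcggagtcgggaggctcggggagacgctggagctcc
Sema5b: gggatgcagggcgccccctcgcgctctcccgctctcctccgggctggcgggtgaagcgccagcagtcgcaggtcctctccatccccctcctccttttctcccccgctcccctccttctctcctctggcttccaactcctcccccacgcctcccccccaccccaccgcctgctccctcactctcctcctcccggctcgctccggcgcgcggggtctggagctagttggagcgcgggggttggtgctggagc
The Sema4g window held 1 match to the searched form of the hypoxia core, and the other 4 windows held no match to either motif as searched. That form of the hypoxia core was found in 11 of the 60 windows of members (18.3%) and in 16.6% of all 32851 windows of this length. The T-box half-site was found in 3 windows of members (5.0%), those of Efna1, Nrp2 and Sema6c, and in 3.33% of all windows. Both strands were searched, the 2 motifs can share 1 end letter, and a match is a description of the sequence only.

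In the E13.5 palatal shelves, guidance genes were mostly slightly higher in the knockout than in the wild-type array, and 1 of them passed 1.5-fold. Of the 46 members that entered, 39 were above 0 and 7 below 0, with a median log2 difference of 0.20. Over all 11449 genes that entered, 55.2% were above 0 and the median was 0.021. Sema3b and Sema4d entered through the knockout array alone. Without the limit for entry, 44 of all 52 members were above 0, with a median of 0.19. The shift was made of many small differences: 1 of 46 members was at least 1.5-fold higher, against 1.91% of all genes, and 0 were at least 1.5-fold lower, against 1.34% of all genes.

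Sema4g, a transmembrane class 4 semaphorin known in the mouse as a ligand of plexin-B2, was the called member. It read 7.73 in knockout shelves against 6.88 in wild-type shelves, and 7.73 in knockout heads against 7.78 in wild-type heads. Its level was thus alike on 3 arrays and lower on the wild-type shelf array. The log2 differences were 0.86 in the shelves (1.81-fold) and -0.053 in the head. No member reached 2-fold in the shelves, where 0.463% of all genes were that much higher and 0.472% that much lower.

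With the limit lowered to 0.32 on the log2 scale, membrane-bound semaphorins made up most of the higher members. Of the 46 that entered, 11 (23.9%) passed it upward, against 7.60% of all genes. Semaphorins of class 4 or 6 were 7 of these 11, and classes 4 to 7 supplied 12 of the 46. Sema4d, the transmembrane ligand of plexin-B1, read 6.29 in knockout shelves and 5.85 in wild-type shelves. Having entered through the knockout array alone, Sema4d could be counted upward only. Sema6c, one of the class 6 semaphorins that bind A-type plexins, read 7.76 in knockout shelves and 7.31 in wild-type shelves (log2 difference 0.45). Sema6d, a plexin-A1 ligand, read 8.70 in knockout shelves and 8.30 in wild-type shelves, and Sema6b read 6.60 in knockout shelves and 6.20 in wild-type shelves. The class 4 members Sema4b and Sema4c had log2 differences of 0.34 and 0.32, and Sema4c (0.3221) only just passed the limit (0.3219). As a group, the semaphorins of classes 4 to 7 had 10 of 12 entered members above 0, with a median of 0.33. Those below 0 were Sema5b at -0.24 and Sema7a, anchored to the membrane by a lipid, at -0.077.

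The secreted class 3 semaphorins differed less. Their median was 0.091, with 5 of 7 members above 0 and differences between -0.33 and 0.26. Sema3c, which guides cardiac neural crest cells into the outflow tract, read 7.89 in knockout shelves against 8.22 in wild-type shelves. It was the 1 member that passed 0.32 downward, against 4.65% of all genes, and its log2 difference in the head was -0.11. Sema3a, the repellent that acts through neuropilin-1, read 9.10 in knockout shelves and 9.27 in wild-type shelves. Sema3e, a ligand of plexin-D1 in blood vessels, lay the other way, with 8.48 in knockout shelves and 8.25 in wild-type shelves.

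Plexins, the semaphorin receptors, were slightly higher in the knockout shelves. All 8 that entered had differences above 0, from 0.028 for Plxnb1 to 0.51 for Plxnc1, with a median of 0.22. Plxnc1, the receptor of Sema7a, read 8.04 in knockout shelves and 7.53 in wild-type shelves, and it lay below the 1.5-fold limit. Plxna4, which pairs with neuropilins and also binds class 6 semaphorins, read 7.45 in knockout shelves and 7.10 in wild-type shelves (log2 difference 0.35). The co-receptors were close to 0, with Nrp1 at 0.017 and Nrp2 at 0.15 (9.69 in knockout shelves and 9.53 in wild-type shelves).

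Eph receptors were slightly higher in the knockout shelves, and ephrins were split. All 5 EphA receptors that entered and all 4 EphB receptors among the members, which lack Ephb2, were above 0, with medians of 0.18 and 0.20. Ephb3 read 8.86 in knockout shelves and 8.53 in wild-type shelves, and Ephb4, a receptor of venous endothelium, read 9.25 in knockout shelves and 8.97 in wild-type shelves. Among the ligands, ephrin-B genes split: Efnb3, whose product keeps corticospinal axons from recrossing the midline in the mouse, read 8.42 in knockout shelves and 7.86 in wild-type shelves (1.47-fold). Efnb1, the ephrin linked to palate development, was at 0.24, and Efnb2, the arterial ligand of EphB4, at -0.13. Ephrin-A genes had a median of 0.10, from Efna4 at -0.15 to Efna1, a ligand of EphA2, which read 8.26 in knockout shelves and 7.95 in wild-type shelves (0.30). Among EphA receptors that entered, Epha2 was highest, at 0.28. Of those under the limit for entry on both shelf arrays, Epha5 was at 0.30 and Epha10 at -0.32. With these counted, 8 of all 9 EphA receptors were above 0 and 1 below.

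**Figure D2:**
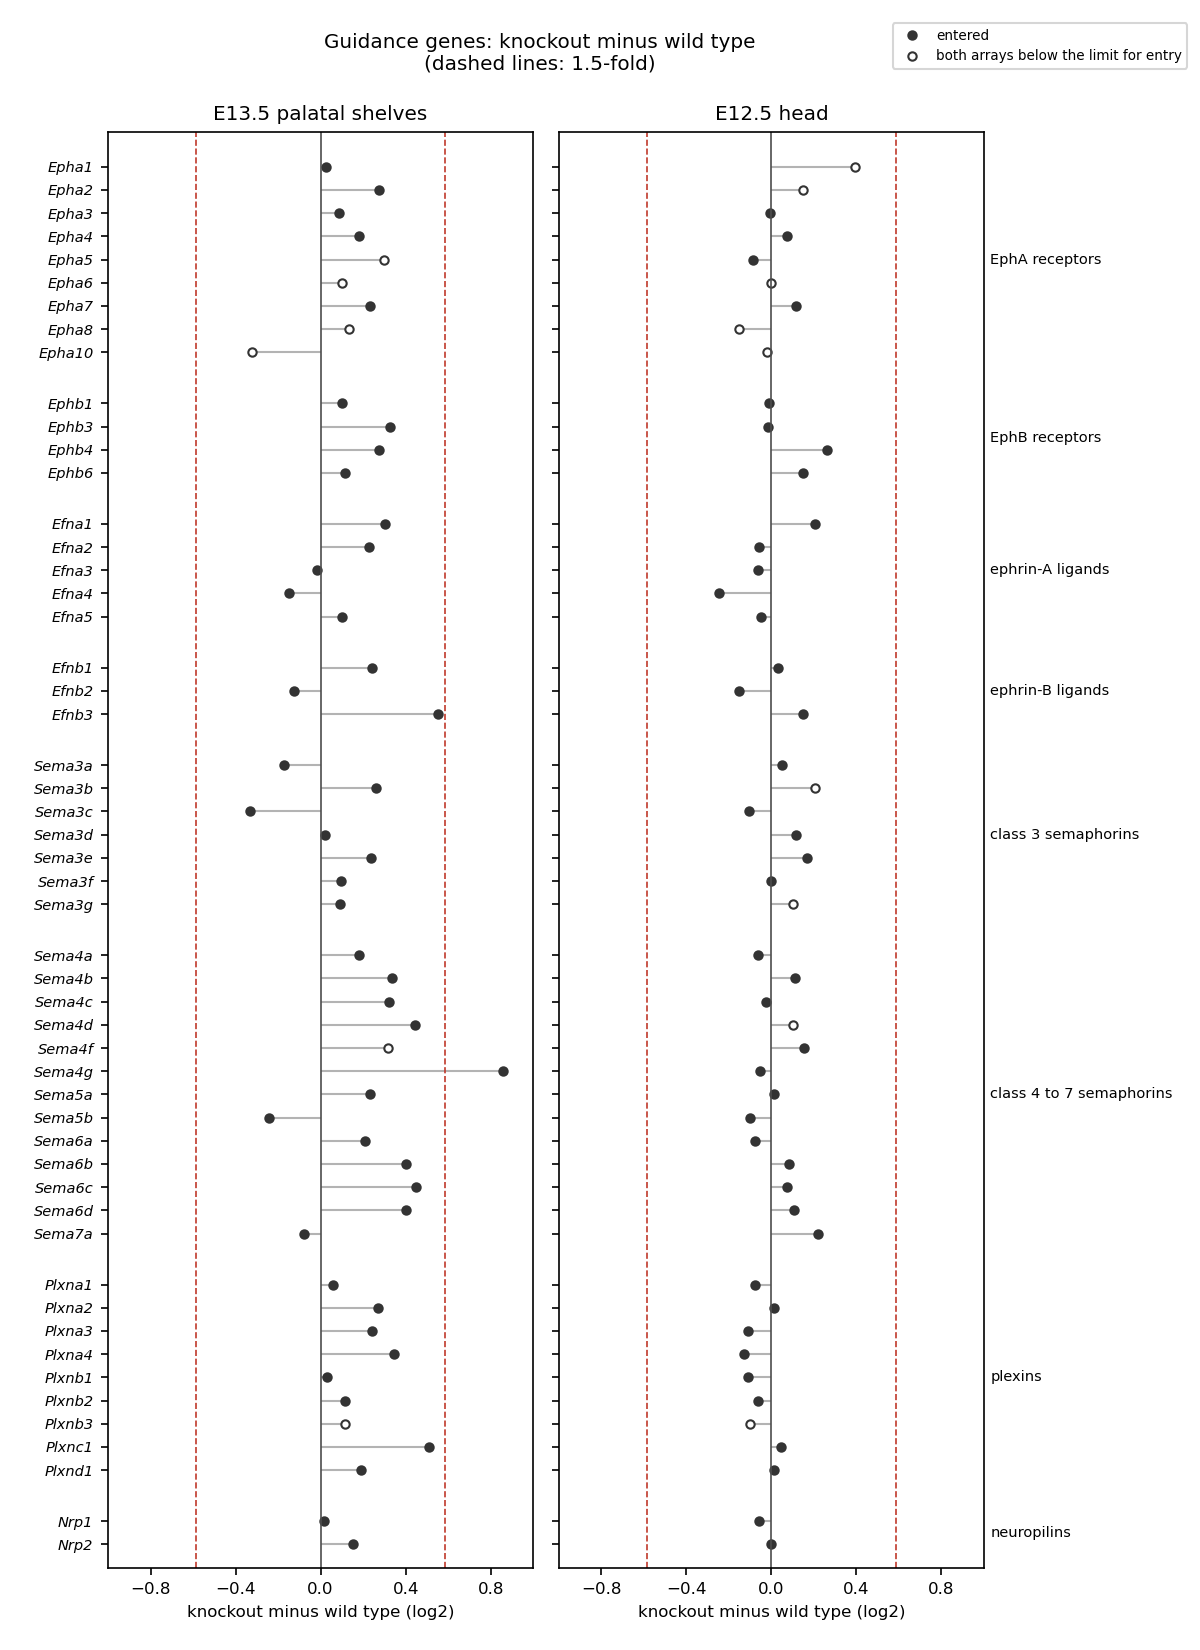
Knockout minus wild-type difference (log2) of each guidance gene in the shelves (left panel) and in the head (right panel), by role group, with filled points for members that entered and dashed lines at 1.5-fold. In the shelves 39 of 46 entered members lie right of 0 and Sema4g (0.86) lies beyond the dashed line, whereas in the head the points lie on both sides of 0.

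In the E12.5 head, guidance genes differed little between knockout and wild type. None of the 43 members that entered differed by 0.32 or more on the log2 scale, a limit that 1.74% of all genes passed upward and 2.41% downward. None was therefore called, where 0.106% of all genes were called higher and 0.352% lower, and at 2-fold these shares were 0.0352% and 0.0528%. Of the 43, 21 were above 0, with a median of -0.0014 (40.9% to 59.1% of members above 0 under other scalings), and 44.5% of all genes were above 0, with a median of -0.017. Sex-linked genes differed with genotype in the head (Eif2s3y at 1.41 and Xist at -1.06), as did skeletal muscle genes (12 of 12 below 0, median -0.81), and their part in the small differences was not tested.

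Within roles, the head values ran close to 0 as well. Ephb4 was the highest entered member, at 8.92 in knockout heads and 8.65 in wild-type heads (log2 difference 0.26), and Efna4 the lowest, at 8.30 in knockout heads and 8.54 in wild-type heads (-0.25). Epha1 read 5.95 in knockout heads and 5.56 in wild-type heads, a wider gap, but both values lie under the limit for entry. Among class 4 to 7 semaphorins, Sema7a was farthest from 0 (0.22), and Sema6c and Sema6d, higher in the knockout shelves, were at 0.075 and 0.11. Plexins had 3 of 8 members above 0 and a median of -0.069, with Plxna4 at -0.13. For class 3 semaphorins the head median was 0.052, with Sema3e at 0.17, and for the other groups it was 0.034 (EphA), 0.068 (EphB), -0.056 (ephrin-A), 0.030 (ephrin-B) and -0.031 (neuropilins). Nrp1 had a log2 difference of -0.060, and Efnb2 read 9.65 in knockout heads and 9.80 in wild-type heads.

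**Figure D3:**
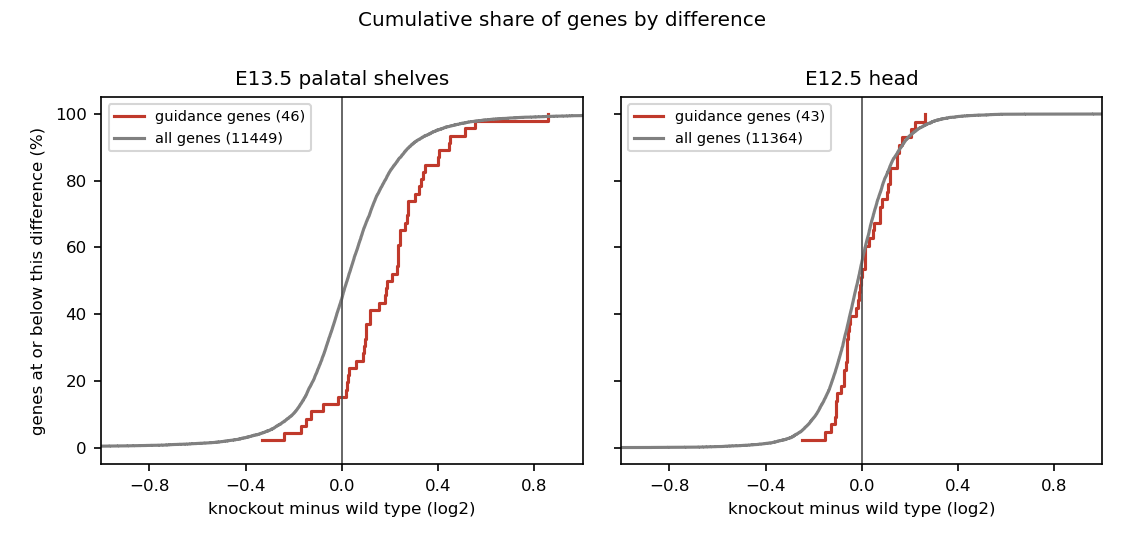
Cumulative share of genes (vertical axis, percent) by knockout minus wild-type difference (log2, horizontal axis) for guidance genes and for all genes that entered, in shelves (left) and head (right). The curve of the 46 guidance genes runs to the right of the curve of all 11449 genes in the shelves (medians 0.20 and 0.021), and the 2 curves lie close together in the head (medians -0.0014 and -0.017).

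Over both pairs, no member passed a test for genotype. An additive limma fit over all 4 arrays, with tissue as the other term and 1 residual degree of freedom, tested 11999 genes, 48 of them members. By limma 0 members and 0 genes (0%) had an adjusted p under 0.05, and the smallest adjusted p of a member was 0.919. At an unadjusted limma p under 0.05 there were 3 members (6.25%), against 5.23% of all genes. All 3 were higher, while the genes comprised 360 higher and 268 lower. The 3 were Efnb3 (log2 difference 0.35, SE 0.13), Ephb4 (0.27, SE 0.099) and Efna1 (0.25, SE 0.10), each higher in the knockout array of both pairs. The residual of this fit is the difference between the 2 pairs, so a small p favours genes alike in both. The agreement of these 3 thus follows in part from how they were picked. Ephb4 had nearly the same difference in each tissue, 0.28 in shelves and 0.26 in head. Efna1 had 0.30 and 0.20, and Efnb3 had 0.55 and 0.15. Among the 41 members that entered both pairs, 18 were above 0 in both (25.7% of all genes were), and 5 were below 0 in both (25.5% of all genes were). Those 5 were Efna3, Efna4, Efnb2, Sema3c and Sema5b. The difference between the 2 tissues in the genotype effect was not tested, since 1 array per group leaves no residual for it.

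Guidance genes, like all genes tested, passed the test for tissue more often than that for genotype in the same limma fit. The 2 shelf arrays (E13.5) were set against the 2 head arrays (E12.5), so tissue and stage cannot be told apart. By limma 12 of 48 members (25%) were higher in the shelves at an adjusted p under 0.05, against 13.0% of all genes, and 12 (25%) were lower, against 14.9% of all genes. Epha1, Epha2 and Sema3b, 3 of the higher members, entered only through the shelf arrays where they are high, and Epha5, 1 of the lower, only through the head arrays. Those members had to differ in that direction to be counted. Without the limit for entry, limma gave 8 higher and 10 lower members among all 52. Epha2, Nrp1, Sema3f, Sema5a, Efna2 and Plxna3 then no longer passed. The standard errors rest mostly on the variance prior shared by all genes, which carried 5.49 degrees of freedom (SD 0.107) beside the 1 of each gene. The shelf-minus-head difference had the same sign in the knockout and in the wild-type arrays for 43 of the 48 members. Both shelf arrays lay at least 1.5-fold above both head arrays for 5 members, Epha1 among them (4.43% of all genes), and at least 1.5-fold below them for 5 (6.60% of all genes). Neuronal markers were lower in the shelves by limma in 16 of 16 cases (median log2 difference -1.91), and their part in the members' differences was not tested.

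Class 3 semaphorins were mostly higher in the shelves. Of the 7, 5 passed on the higher side (13.0% of all genes did) and 0 on the lower (14.9% of all genes). Of the 5, Sema3b was under the limit for entry in both head arrays and 1 shelf array. Sema3d, a secreted semaphorin, read 9.24 in knockout shelves and 9.22 in wild-type shelves, against 7.13 in knockout heads and 7.02 in wild-type heads. It was 4.46-fold higher in the shelves (log2 difference 2.16, SE 0.10, limma adjusted p = 7.87e-05). Sema3e read 8.48 in knockout shelves and 8.25 in wild-type shelves, against 6.80 in knockout heads and 6.63 in wild-type heads, a 3.15-fold difference (limma adjusted p = 0.000138). Both shelf arrays exceeded both head arrays by at least 2-fold for these 2 members, as they did for 1.63% of all genes. At 3-fold Sema3d still did, with 0.500% of all genes. Sema3a was 1.80-fold higher in the shelves (limma adjusted p = 0.00191), and Sema3b and Sema3f were 1.43-fold and 1.34-fold higher. Sema3c did not pass (log2 difference -0.0021, SE 0.11). Nrp1, the co-receptor of Sema3a, was 1.37-fold higher in the shelves (limma adjusted p = 0.0173).

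Plexins ran the other way, with 0 of 8 higher (13.0% of all genes were) and 4 lower (14.9% of all genes) in the shelves. Plxna4 read 7.45 in knockout shelves and 7.10 in wild-type shelves, against 8.25 in knockout heads and 8.38 in wild-type heads (2.06-fold lower, limma adjusted p = 0.0021). Plxna2 was 1.97-fold and Plxna3 1.46-fold lower, and Plxnc1 had a log2 difference of -0.68. The plexins of the B class did not pass, with log2 differences of -0.078 (Plxnb1) and 0.097 (Plxnb2), nor did Plxnd1, the Sema3e receptor, at 0.27 (SE 0.10).

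Of 13 semaphorins of classes 4 to 7, 4 were lower (14.9% of all genes were) and 1 was higher (13.0% of all genes). Sema5b, a transmembrane semaphorin with thrombospondin repeats, read 7.05 in knockout shelves and 7.29 in wild-type shelves, against 8.38 in knockout heads and 8.48 in wild-type heads. It was 2.39-fold lower in the shelves (limma adjusted p = 0.000355), while its relative Sema5a was 1.40-fold higher (limma adjusted p = 0.0169). Sema6c, Sema7a and Sema6b were 1.67-fold, 1.63-fold and 1.52-fold lower.

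EphA receptors were split between the tissues. Epha5, known for the mapping of brain projections, read 6.13 in knockout shelves and 5.83 in wild-type shelves, both under the limit for entry, against 8.16 in knockout heads and 8.25 in wild-type heads. Its difference of -2.22 (SE 0.12, limma adjusted p = 0.000112) was the largest in size among the 48 members tested, and with Sema5b it was 1 of 2 members at least 2-fold lower in both shelf arrays than in both head arrays, where 3.18% of all genes were. At 3-fold Epha5 still was, with 1.08% of all genes. Epha3 read 10.82 in knockout shelves and 10.74 in wild-type shelves, against 9.73 in knockout heads and 9.74 in wild-type heads, and was 2.06-fold higher in the shelves (limma adjusted p = 0.000641). Epha1 and Epha7 were 1.92-fold and 1.44-fold higher, as was Epha2 by 1.41-fold, with both head arrays of Epha1 and of Epha2 under the limit for entry, and Epha4 did not pass (log2 difference 0.086, SE 0.10). Of EphB receptors, Ephb1 was 1.57-fold lower in the shelves and the other 3 did not pass. Among ligands, Efna1 was higher by 0.68 on the log2 scale (SE 0.10), and Efna2 and Efnb3 were 1.39-fold and 1.58-fold lower.

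**Figure D4:**
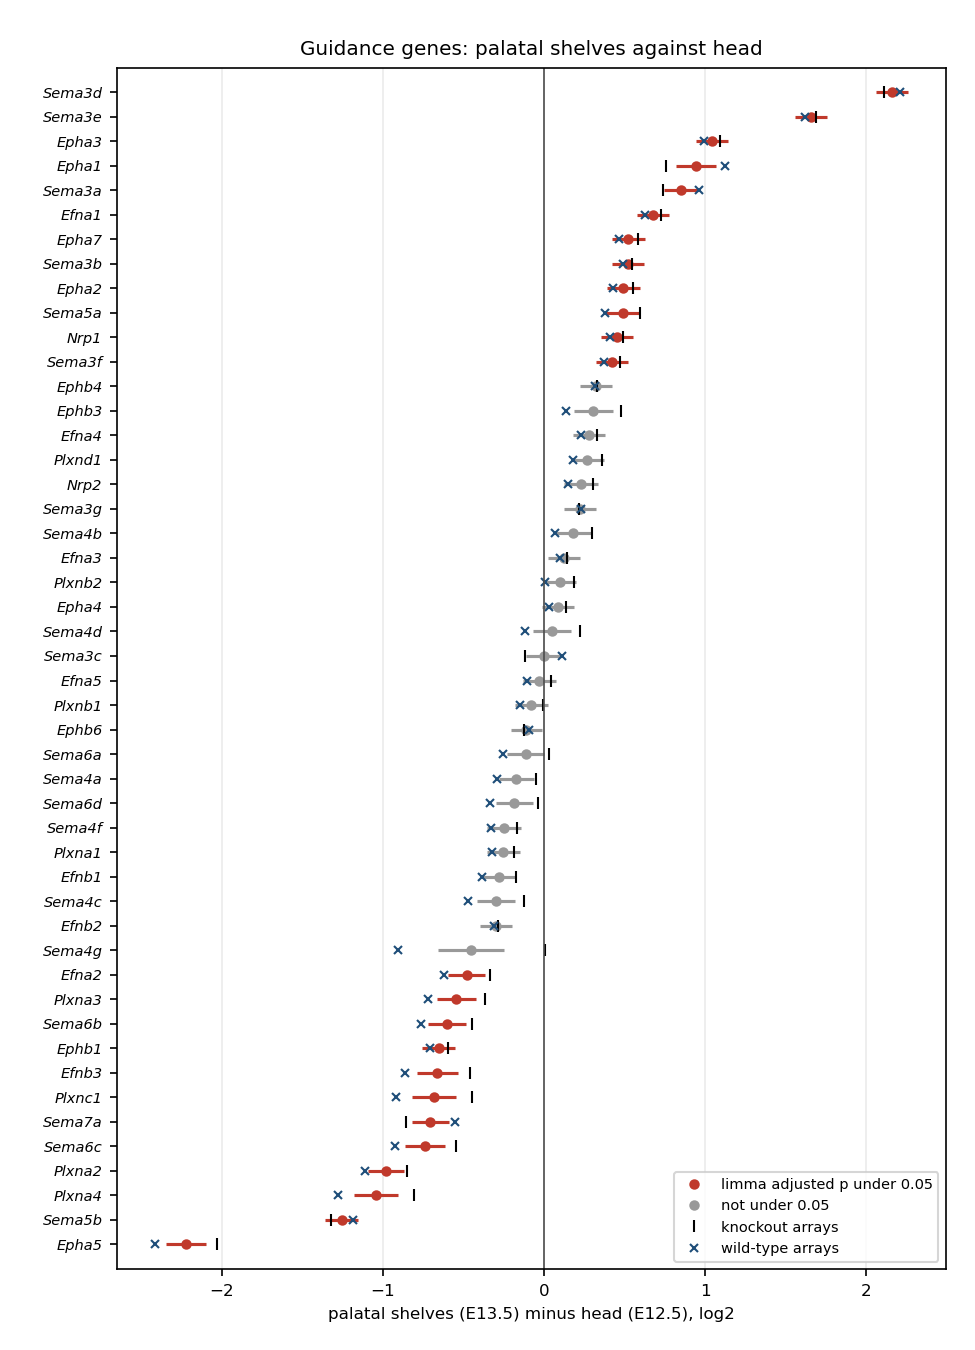
Palatal shelves minus head (log2) for the 48 guidance genes that entered the fit, ordered by the fitted difference. Points and bars give the limma difference and its SE, coloured where the adjusted p is under 0.05, and ticks and crosses give the knockout and the wild-type arrays alone. Sema3d (2.16) and Epha5 (-2.22) stand at the 2 ends.

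Knockout differences in the shelves were also set out by the tissue difference. Among entered members at least 1.5-fold lower in the mean of the shelf arrays than in the mean of the head arrays, 7 of 9 were above 0 in the knockout shelves, with a median of 0.35. All genes of that kind had 74.7% above 0 and a median of 0.21. Leaving such genes out, 32 of 37 members (86.5%) were above 0 with a median of 0.18, against 53.7% of genes with a median of 0.014. The split was chosen after the data were seen, and both quantities use the 2 shelf arrays.

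Markers of other cells differed between the knockout and wild-type shelves, and their part in the guidance genes' differences was not tested. These lists, and those of other guidance genes and effectors below, were chosen with earlier results of these data known. Their counts describe these arrays only. Neuronal markers were above 0 in 15 of 16 cases, with a median of 0.60, and the sum of their linear values was 5679 in knockout shelves against 3893 in wild-type shelves. That sum was 18465 in knockout heads and 18369 in wild-type heads. Hypoxia and glycolysis genes were above 0 in 10 of 10 cases with a median of 0.75, and their sum was 6295 in knockout shelves and 3860 in wild-type shelves. Blood endothelial markers were above 0 in 10 of 11 cases with a median of 0.15 (sums of 3871 in knockout shelves and 3418 in wild-type shelves). Skeletal muscle genes were below 0 in 11 of 11 cases, with a median of -1.29 and sums of 895 in knockout shelves and 2120 in wild-type shelves. Palatal mesenchyme markers had 11 of 13 above 0 and a median of 0.16, and oral epithelial markers 1 of 7 and a median of -0.14.

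Guidance genes of other families were also mostly higher in the knockout shelves. Of 24 other guidance cues and receptors that entered, among them Slit, Robo, netrin and netrin receptor genes, 18 were above 0 with a median of 0.20, and 5 were called higher and 0 lower, against 1.91% and 1.34% of all genes. Nrcam and Slit1 entered only through the knockout array, where they are high. Nrcam, a neuronal adhesion molecule that takes part in semaphorin receptor complexes, read 7.05 in knockout shelves and 5.67 in wild-type shelves (2.61-fold). Its relatives Chl1 and L1cam were 2.14-fold and 2.00-fold higher, Slit1 1.79-fold, and the netrin receptor gene Dcc 1.53-fold. These 5 genes were between 2.35-fold and 5.24-fold lower in the shelves than in the head. In the head pair, 13 of 26 of these genes were above 0, with a median of 0.0038.

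Intracellular effectors of Eph and plexin signalling lay closer to 0. Of 27 that entered the shelf pair, 21 were above 0 with a median of 0.047, and 1 was called higher and 0 lower, against the same shares of all genes. Crmp1, a neuronal mediator of semaphorin signals, was the 1 called, at 9.69 in knockout shelves and 8.62 in wild-type shelves (2.10-fold), and Dpysl4 of the same family was 1.45-fold higher. In the head, 8 of 26 effectors were above 0, with a median of -0.069.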

How the data were processed

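For each transcript cluster the authors deposited a log2 expression value, for which the submitters' processing notes name RMA and Affymetrix Expression Console. Versions, build and annotation were not stated there. RMA equalizes the arrays' probe distributions, which reduces shifts that most genes share, and it compresses differences of dim genes. Over named genes the array medians still ran from 6.15 to 6.18, and another quantile normalization moved the share of all genes above 0 to 46.6% in the shelves (55.2% as deposited) and to 51.3% in the head (44.5% as deposited). Tissue was frozen and total RNA labelled with biotin, per the labels' protocols.

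Of 41345 clusters, 23521 had a single symbol in the platform annotation, and the 1814 with several and the 16010 with none were not used. Clusters of 1 gene were averaged, with 55 clusters behind the 52 members. The additive fit of genotype and tissue used limma 3.58.1 in R 4.3.3 with Benjamini-Hochberg adjustment over all genes that entered, meaning that the highest of 4 arrays reached 6.16. A trial on simulated arrays used additive changes and variances drawn from the prior of the fit itself. That trial cannot show how well the fit suits these 4 arrays. Precision is limited by the number of arrays, which have no read depth. The 1 residual degree of freedom is the difference between the 2 pairs in knockout minus wild type. A gene that differed in 1 pair only thus had a larger SE, as Sema4g did for genotype (SE 0.20). The p-values rest on that difference and on the shared prior, and describe no spread between replicate samples. Differences between arrays may be technical.

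Named with the value of every array were Tbx1, members called in a pair or apart by 2-fold between tissues on all arrays, and further members of each role with large differences. Other members are given by counts and ranges. From each other list, up to 4 genes with the largest differences were eligible, and Dcc and Osr2 were also named after their values were seen. The members and lists were chosen with earlier results of these data known. Marker lists of macrophages, Schwann cells and neural progenitors had median shelf differences of -0.28, -0.093 and -0.33, and head medians of -0.11, -0.10 and -0.12. Alternatives were median centring of arrays, a repeated quantile normalization, cyclic loess, the brightest cluster per gene, an upper-quartile filter, no filter, other fold limits, 3 other variance priors and the mean in place of the median.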

Additional observations from a re-analysis of the deposited data

Results flagged for a closer look

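Sema4g was the 1 member called in a pair whose difference had the opposite sign in the other pair. Its knockout minus wild-type difference was 0.86 in the palatal shelves and -0.053 in the head, and the difference between the tissues was not tested. The wild-type shelf array read 6.88, and the other 3 arrays read between 7.73 and 7.78. The head arrays differ from the shelf arrays in tissue and stage, so they set no baseline for the shelves. Whether the knockout or the wild-type shelf array is the unusual one was not tested, since each group holds 1 array.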

How the results depend on the processing

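With 1 array per group, no replicate could be left out, and leaving an array out of the additive fit leaves no residual degree of freedom. No pairing beyond tissue was possible, since each group holds 1 array. The additive fit does compare knockout with wild type within each tissue. The count of members called higher in the shelves was 1 as reported, 0 at 2-fold, 0 with an upper-quartile filter (log2 7.79), under which Sema4g no longer enters, and 11 at a limit of 0.32 on the log2 scale. The count called lower was 0 as reported and 1 at the same lower limit. Members at least 2-fold above the head on all arrays numbered 2, with 5 at 1.5-fold and 1 at 3-fold, and the counts below the head were 2, 5 and 1 at the same limits. Sema4g came under an adjusted limma p of 0.05 for shelves minus head with a mean-variance trend (0.0437) and with 1 common variance (0.0120), against 0.152 as reported. The median over members in the shelves lay between 0.18 and 0.21 under 8 alternatives, 1 of them chosen after seeing the data, and the share above 0 between 78.3% and 87.0%. In the head the median lay between -0.019 and 0.036 and changed sign under 4 of 8, and the share above 0 lay between 40.9% and 59.1%. Members passing for shelves minus head numbered 8 to 16 on the higher side (12 as reported, 8 without a filter) and 10 to 15 on the lower (12 as reported, 10 without a filter). Every other count of members also kept within 1.5 times of its value under the alternatives run, and every role group median in the shelves kept its sign. The neuropilin median in the head changed sign under 2 alternatives and that of class 4 to 7 semaphorins under 1.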

Other observations

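Of the members, 3 had a pair of transcript clusters, and these were read at different levels. For Ephb1 the brighter cluster read 7.34 in knockout shelves and 7.21 in wild-type shelves, and the dimmer one 5.82 and 5.76. For Plxna1 the clusters had shelf differences of 0.15 and -0.027, and for Plxnb1 of 0.0026 and 0.054. In the head the clusters of Ephb1 disagreed in sign, at -0.086 and 0.064.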
